A study of Mus musculus with 15 samples.

Results

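The expression of 10 genes of the marrow niche, of 38315 genes in the table, was followed across 15 mouse bone marrow samples. They were taken by gene name: Kitl and Lepr for the mesenchymal stromal cells, Col1a1, Col1a2, Col3a1 and Sparc for collagen matrix, Pdgfrb for pericytes and other perivascular cells, Kdr and Cdh5 for endothelium, and Bglap for mature osteoblasts. RNA was sequenced in bulk from 7 marrows with acute myeloid leukaemia (AML) of NUP98-NSD1/FLT3-ITD transgenic mice and from marrow of wild-type mice, whole in 4 samples and lineage-negative in 4. NUP98-NSD1 fuses a nucleoporin to a histone methyltransferase, FLT3-ITD is an activated form of the receptor tyrosine kinase FLT3, and lineage-negative marrow is marrow depleted of cells that carry antigens of mature blood cells. The labels give no age, no driver of the transgenes and no statement on which cells of the marrow carry them, and do not say that the samples are separate animals, so that p-values measure only the spread between these samples. The genes were compared between AML and each of the wild-type groups, and between the wild-type groups.

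Haematopoietic stem and progenitor cells live beside sinusoidal vessels, among mesenchymal cells that carry the leptin receptor. Those cells and the endothelium make stem cell factor, the product of Kitl, and the mesenchymal cells also make the chemokine CXCL12. They give rise to osteoblasts, which lay down type I collagen and osteocalcin. Stromal cells are rare in marrow and partly stay behind on the bone when marrow is flushed, so their transcripts are a small part of a bulk library. In bulk samples, fewer cells of a type and less RNA per cell cannot be told apart.

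Values are normalized counts: the authors' estimated read counts divided by a size factor per library. Errors are standard deviations (±) over the n libraries given, or standard errors (SE) of a log2 difference. A level of 3 reads, used here as a floor, was 1.96 to 4.09 normalized counts, at estimated depths of 20.3 to 35.1 M reads (M, mega) in AML, 11.4 to 17.2 M in whole marrow and 20.3 to 28.1 M in lineage-negative marrow. The whole marrow libraries held a low signal over genes that marrow does not use. Over 1662 olfactory and vomeronasal receptor genes, this background was 1.68 to 3.23 normalized counts per kb of exon in whole marrow, 0.0201 to 0.0602 in lineage-negative marrow and 0.0255 to 0.804 in AML, where the highest values were 0.804 in replicate 6 and 0.236 in replicate 5. The groups carried the markers of their labels: progenitor genes such as Kit summed to 14094 to 18522 in lineage-negative marrow and to 1145 to 2042 in whole marrow, and the erythroid genes to 287669 to 690819 in whole marrow. With the deposited scaling, the typical gene was lower in whole marrow than in the other groups, and the cause was not tested. The median of the log2 differences of all 18941 genes tested was 0.67 between AML and whole marrow, 0.59 for lineage-negative against whole marrow and 0.02 for AML against lineage-negative marrow. The differences of the 9 genes tested from whole marrow, and the counts for the lists of related genes, are therefore also given with libraries rescaled by the TMM method (trimmed mean of M values), which moved the first 2 medians to −0.01 and −0.09.

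The sequences upstream of 4 of the genes are shown because 3 of them, Kitl, Lepr and Kdr, were called in the same directions in both comparisons with lineage-negative marrow, while Col1a2 was the gene called lower in AML in both comparisons with AML. Each is the 250 bases before a transcription start from RefSeq, build GRCm38.p6, in the direction of the gene. Capitals mark a TATAAA or CCAAT motif or the letters CAGGAA, a form of the ETS site, on either strand. Other sites with the ETS core GGAA were not searched for and are left in lower case.
Kitl promoter, chr10:100015571-100015820, plus strand: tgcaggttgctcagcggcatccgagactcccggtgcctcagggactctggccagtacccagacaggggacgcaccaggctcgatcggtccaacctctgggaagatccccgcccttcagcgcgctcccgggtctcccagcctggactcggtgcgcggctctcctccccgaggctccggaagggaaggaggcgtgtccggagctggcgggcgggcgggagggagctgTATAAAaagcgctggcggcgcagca
Lepr promoter, chr4:101717157-101717406, plus strand: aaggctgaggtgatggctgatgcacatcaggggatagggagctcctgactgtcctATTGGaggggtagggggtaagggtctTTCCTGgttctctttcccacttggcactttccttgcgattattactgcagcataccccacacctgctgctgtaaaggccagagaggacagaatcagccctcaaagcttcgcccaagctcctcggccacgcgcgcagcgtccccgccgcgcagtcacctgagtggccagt
Kdr promoter, chr5:75978456-75978705, minus strand: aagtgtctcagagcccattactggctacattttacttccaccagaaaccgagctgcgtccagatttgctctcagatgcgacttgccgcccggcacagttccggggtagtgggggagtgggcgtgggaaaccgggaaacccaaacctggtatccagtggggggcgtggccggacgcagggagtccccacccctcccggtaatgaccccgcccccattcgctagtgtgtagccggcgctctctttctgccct
Col1a2 promoter, chr6:4505368-4505617, plus strand: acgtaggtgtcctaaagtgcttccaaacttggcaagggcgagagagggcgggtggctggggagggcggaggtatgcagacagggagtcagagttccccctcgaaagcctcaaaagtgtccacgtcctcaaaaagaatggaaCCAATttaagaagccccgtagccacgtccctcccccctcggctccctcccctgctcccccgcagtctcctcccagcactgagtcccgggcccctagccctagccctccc
Kitl held TATAAA from 25 to 20 bases before its start, Lepr held CCAAT and CAGGAA on the opposite strand, Col1a2 held CCAAT from 109 to 105 bases before its start, and Kdr held none of the motifs searched. The search also took in a Runx core (AACCACA) and CACGTG, which none of these windows held. Of 32851 RefSeq windows of the same length, 12.4% held TATAAA, 33.8% CCAAT, 25.7% CAGGAA, 4.40% AACCACA and 6.02% CACGTG. RefSeq windows were used for 7 of the 10 genes, with 2 for Lepr, of which the upstream one is shown. Cdh5 and Pdgfrb were also called in both comparisons with lineage-negative marrow, but no window was used for them or for Col1a1.

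Lineage-negative marrow had the lowest mean levels of the niche genes Kitl and Lepr and of the endothelial genes Kdr and Cdh5, and the highest of Pdgfrb. Of the 9 genes that could be tested, 4 (Kitl, Lepr, Kdr and Cdh5) were called lower and 1 (Pdgfrb) higher in lineage-negative than in whole marrow, where 17.2% of all genes tested were called lower and 33.1% higher. AML was called above lineage-negative marrow for the same 4 genes and below it for 2, Col1a2 and Pdgfrb, against 17.7% and 12.5% of all genes. Compared with whole marrow, AML had a lower level of Col1a2, 1 of 9 genes, about the share of all genes called lower (11.3%). With TMM scaling Kitl and Sparc were lower as well, 3 of 9 at a background of 16%. The Col1a2 call was lost after subtraction of the receptor gene background (−1.15, limma adjusted p = 0.0845), but not with TMM scaling added (−1.98). It was also lost in a fit with a replicate block and without 2 of the AML libraries together. Called means that limma's adjusted p was below 0.05 and the log2 difference was 1 or more in size. The other collagen genes had widely spread values in lineage-negative marrow, with 2 libraries high in type I collagen, and Bglap was close to 0 in all groups. Of the 10 genes, 9 passed the filter on low values and entered the fit, and Bglap did not.

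**Figure D1:**
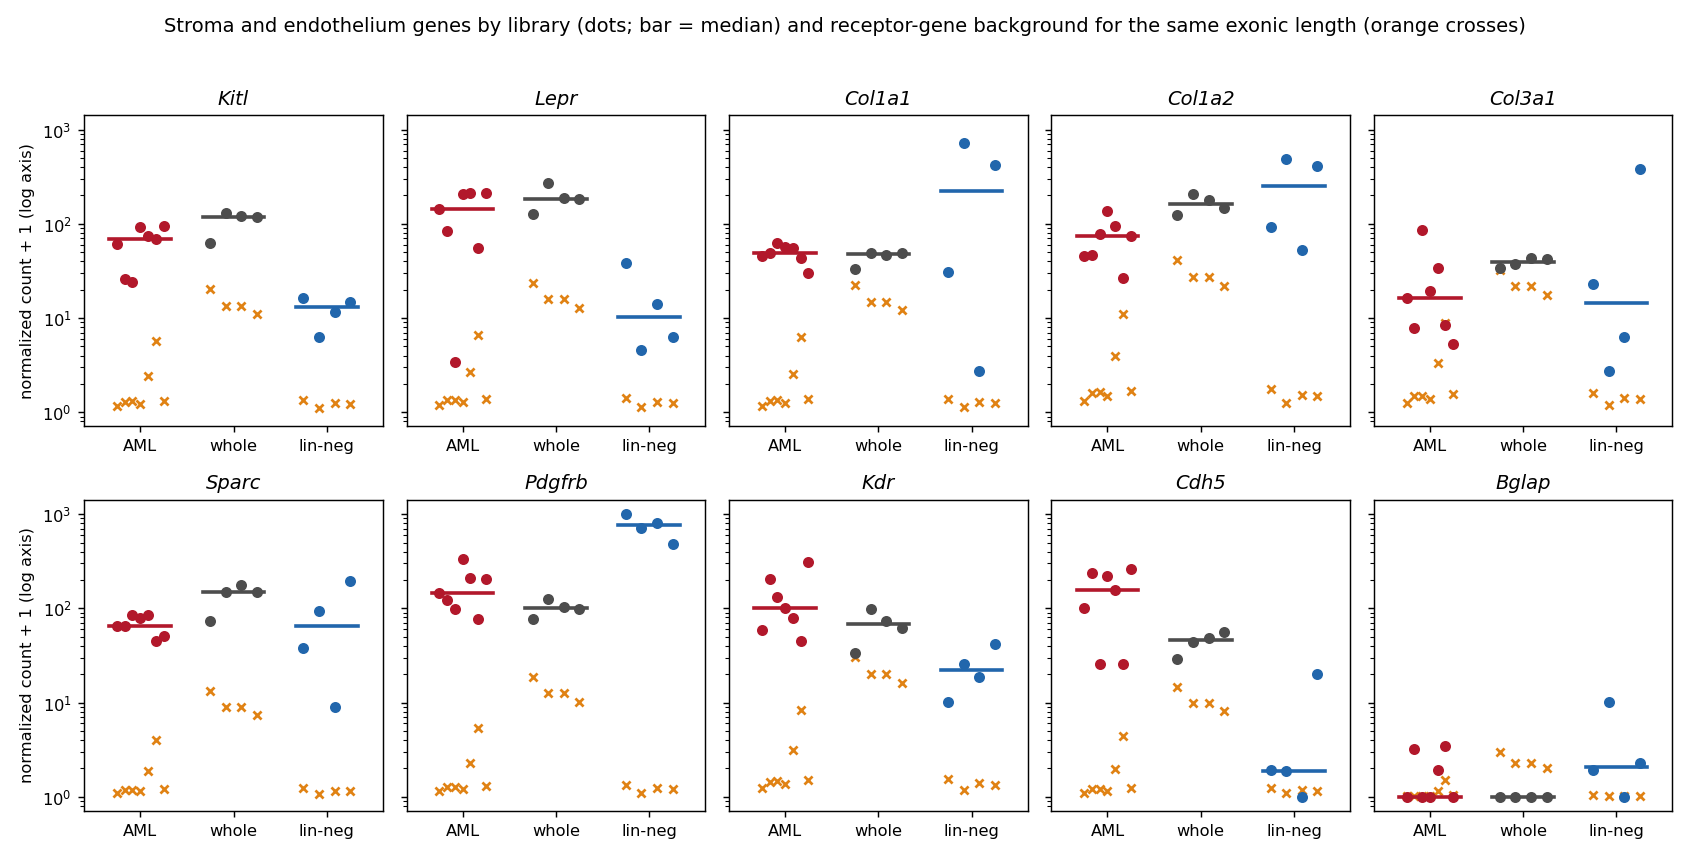
Normalized count plus 1 on a log axis for each of the 10 genes, by group, with each dot a library and each bar the group's median; orange crosses give the receptor gene background of that library for the gene's exonic length. Pdgfrb is highest in lineage-negative marrow (477 to 1002), Kitl and Cdh5 are lowest there, and Col3a1 in whole marrow (33.2 to 42.8) lies close to its background of 16.5 to 31.7.

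Kitl (ENSMUSG00000019966, chromosome 10, 99851492 to 99936278, plus strand) encodes stem cell factor, the ligand of the receptor Kit. Its normalized counts in AML had a lowest value of 23.3, a median of 67.9 and a highest of 94.9. In whole marrow they were 61.9, 129, 119 and 116 in replicates 1 to 4, and in lineage-negative marrow 15.4, 5.29, 10.6 and 13.7. Every lineage-negative library was thus below every library of the other groups, while 3 of the 7 AML libraries were below all whole marrow libraries and the other 4 lay between whole marrow replicate 1 and the rest of that group. The log2 difference of AML from lineage-negative marrow was 2.28 (SE 0.41, limma adjusted p = 0.000146), and that of lineage-negative from whole marrow −3.17 (SE 0.47, limma adjusted p = 1.04e-05), or −3.84 with TMM scaling. Kitl was 62.0 ± 28.7 in AML (n = 7) and 106 ± 30.1 in whole marrow (n = 4), a log2 difference of −0.89 (SE 0.41, limma adjusted p = 0.0666) with the deposited scaling. With TMM scaling the same difference was −1.58 (limma adjusted p = 0.00444) and passed the test.

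Lepr (ENSMUSG00000057722, chromosome 4, 101574601 to 101672549, plus strand), the leptin receptor and the usual marker of these mesenchymal cells, was the most uneven of the niche genes in AML. Its AML values ran from 2.45 in replicate 3, under the floor, over a median of 144 to 214 in replicate 7. Whole marrow had 127, 268, 186 and 183 normalized counts, and lineage-negative marrow 37.2, 3.53, 13.2 and 5.22. All whole marrow libraries were above all lineage-negative libraries, and 6 of 7 AML libraries were above all lineage-negative ones. The log2 difference of AML from lineage-negative marrow was 2.85 (SE 0.85, limma adjusted p = 0.00937), and that of lineage-negative from whole marrow was −4.06 (SE 0.96, limma adjusted p = 0.00106), or −4.73 with TMM scaling. AML differed from whole marrow by −1.21 (SE 0.85, limma adjusted p = 0.219), and by −1.89 with TMM scaling (limma adjusted p = 0.101), neither past the threshold.

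A companion list of 14 genes of these mesenchymal cells was also low in AML replicate 3, with a sum of 863 normalized counts against 1197 to 2818 in the other AML libraries. That library was the lowest in AML for 9 of the 14 genes and tied at 0 for 1, Snai2. It was not the lowest for Pdgfra, Il7 and Vcam1, and it was the highest for Nes, at 30.6 against 0 to 13.6. Cxcl12, the chemokine that holds stem cells in the marrow, had 41.7 normalized counts there and 175 to 1000.4 in the other AML libraries. Igfbp5, an IGF binding protein, had 11.03 there and 137 to 701 in the others. The adipokine gene Adipoq, the BMP antagonist gene Grem1 and the chemokine gene Cxcl14 were at 0 in that library. The same library had the highest sum of B cell markers in AML, 5624 against 440 in the lowest AML library, and the highest macrophage sum, 7750 against 2792 in the lowest; their part in its low mesenchymal values was not tested. The plot of genes across libraries shows this low point.

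**Figure D2:**
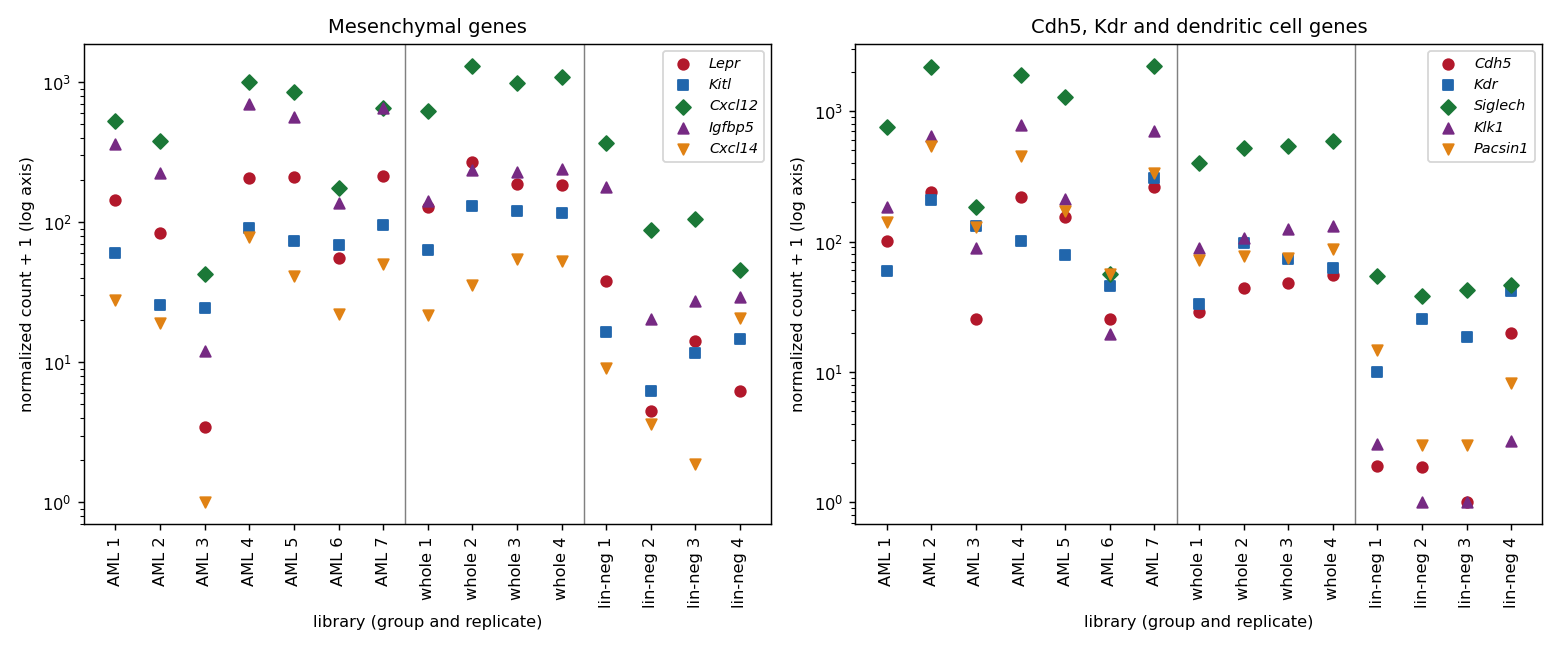
Normalized count plus 1 on a log axis in each of the 15 libraries, for mesenchymal genes (left) and for Cdh5 and Kdr with 3 dendritic cell genes (right); vertical lines separate the groups. In AML replicate 3 Lepr is at 2.45 and Cxcl12 at 41.7, and Cdh5 is at 24.5 and 24.7 in AML replicates 3 and 6, where Siglech is at 181 and 55.5. The 3 dendritic cell genes are part of a list of 10. Of the genes not drawn, Spib, Ly6d and Tcf4 are higher in AML replicate 3 than in replicate 1, unlike Cdh5.

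The list of 14 mesenchymal genes, 13 of them tested, was largely lower in lineage-negative marrow. Against whole marrow 10 of the 13 were called lower there and 1 higher (12 and 1 with TMM scaling), with a median log2 difference of −2.41 against 0.59 for all genes tested. Grem1 was 2.35 ± 4.11 in lineage-negative marrow (n = 4) and 35.1 ± 10.1 in whole marrow (n = 4), a log2 difference of −4.09. Cxcl12 differed by −3.11 and Vcam1, an adhesion molecule of stroma and macrophages, by −2.97. The 1 gene called higher was Angpt1, the angiopoietin that binds the receptor Tek, at 2229 ± 601 in lineage-negative marrow (n = 4), 239 ± 57.4 in whole marrow (n = 4) and 149 ± 88.0 in AML (n = 7).

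Between AML and lineage-negative marrow, 6 of the 13 mesenchymal genes were called higher in AML and 1, Angpt1, lower. The shares of all genes were 17.7% and 12.5%. The median log2 difference of the list was 1.50, against 0.02 for all genes. Esm1, a secreted proteoglycan, differed by 2.93 (SE 0.50), Igfbp5 by 2.49 (SE 0.82) and Grem1 by 2.18 (SE 0.74), all with limma adjusted p under the threshold of 0.05, while Angpt1 differed by −4.02 (SE 0.31). Against whole marrow, 3 of the 13 genes were called lower in AML and 0 higher, namely Nes (−2.18), Grem1 (−1.92) and Vcam1 (−1.06); 0 were higher at an unadjusted limma p under 0.05. With TMM scaling 9 were called lower and 0 higher. With background subtraction and TMM scaling the counts were 6 lower against whole marrow and 4 higher against lineage-negative marrow, and 7 lower for lineage-negative against whole marrow. Cxcl12 had 518 ± 347 normalized counts in AML (n = 7) and 997 ± 288 in whole marrow (n = 4), with a log2 difference of −1.41 (limma adjusted p = 0.0685) as deposited and a call with TMM scaling.

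Type I collagen, the main protein of bone matrix, is built from the products of Col1a1 and Col1a2. Col1a1 (ENSMUSG00000001506, chromosome 11, 94827050 to 94843868, plus strand) had 29.1 to 61.3 normalized counts in AML, with a median of 48.4. Whole marrow had 32.3, 48.2, 45.9 and 47.8, which lie inside the AML range with no background subtracted. These whole marrow values were only 1.52 to 4.32 times the background for the length of Col1a1. Of the 4 libraries, 3 were above the 95th percentile of the receptor genes per kb, and replicate 1 was not. In lineage-negative marrow the values were 29.95, 722, 1.76 and 418 in replicates 1 to 4, from under the floor to far above every other library. No comparison of Col1a1 passed the test. With background subtraction the log2 differences from whole marrow were 0.78 for AML and 1.36 for lineage-negative marrow, neither called. With TMM scaling added they were −0.030 and 0.56. The log2 differences were 0.12 for AML against whole marrow (SE 0.94, limma adjusted p = 0.921), turning to −0.57 with TMM scaling, −0.58 for AML against lineage-negative marrow (SE 0.94, limma adjusted p = 0.642) and 0.70 for lineage-negative against whole marrow (SE 1.06, limma adjusted p = 0.582), or 0.025 with TMM scaling. Without lineage-negative replicate 3 the last was 2.26 and passed (limma adjusted p = 0.00817), and without replicate 2 it was −0.42.

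Col1a2 (ENSMUSG00000029661, chromosome 6, 4504814 to 4541544, plus strand) gave the call against whole marrow. Its AML values had a lowest of 25.9, a median of 73.4 and a highest of 134. Whole marrow had 123, 208, 177 and 147 normalized counts, and 6 of 7 AML libraries were below all 4. The log2 difference was −1.34 (SE 0.51, limma adjusted p = 0.0283), and −2.03 with TMM scaling (limma adjusted p = 0.00569). None of the 9 genes was called higher in AML than in whole marrow: the count was 0 by limma, 0 at an unadjusted p under 0.05 and 0 with TMM scaling, at backgrounds of 27.3% as deposited and 4.73% with TMM scaling. After subtraction of the receptor gene background alone, Col1a2 no longer passed, at −1.15 (limma adjusted p = 0.0845), and with subtraction and TMM scaling together it did, at −1.98 (limma adjusted p = 0.0140).

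In lineage-negative marrow Col1a2 had 92.6, 487, 51.1 and 405 normalized counts. As for Col1a1, replicates 2 and 4 were high and replicate 3 was lowest. AML was lower than lineage-negative marrow by −1.47 on the log2 scale (SE 0.51, limma adjusted p = 0.0246), and the call rested on those 2 libraries: it was −0.98 without replicate 2 (limma adjusted p = 0.141) and −1.06 without replicate 4 (limma adjusted p = 0.125). Lineage-negative and whole marrow differed by 0.12 (SE 0.58, limma adjusted p = 0.862), and by −0.57 with TMM scaling. The reads of Col1a2 can include those of an overlapping predicted gene on the same strand, which had at most 4.17 normalized counts in any library.

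The ratio of the type I collagen chains differed between libraries. Col1a1 per Col1a2 was 0.232 to 0.324 in whole marrow and 0.397 to 1.62 in AML, so that these groups did not overlap. In lineage-negative marrow it was 0.324, 1.48, 0.0345 and 1.03 in replicates 1 to 4. The ratio is taken, with no background subtracted, from normalized counts of genes of unequal length and compares libraries, not chains.

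Col3a1 (ENSMUSG00000026043, chromosome 1, 45350698 to 45388866, plus strand), the collagen of reticular fibres, was the gene least separated from background. In whole marrow it had 33.2, 36.2, 42.8 and 40.9 normalized counts, which was 1.05 to 2.48 times the background for its length, and 0 of 4 libraries were above the 95th percentile of the receptor genes per kb. AML ran from 4.31 over a median of 15.3 to 85.8, the last in replicate 3. Lineage-negative marrow had 21.8, 1.76, 5.29 and 382. The group ranges overlapped in all comparisons, and none passed. AML and whole marrow differed by −1.25 (SE 0.94, limma adjusted p = 0.253), AML and lineage-negative marrow by −0.26 (SE 0.94, limma adjusted p = 0.841), and lineage-negative and whole marrow by −0.99 (SE 1.06, limma adjusted p = 0.429). Without lineage-negative replicate 4 the last was −2.41 and passed (limma adjusted p = 0.0138), and without that library the second was 1.16. With TMM scaling the differences from whole marrow were −1.92 for AML and −1.65 for lineage-negative marrow, neither called. With background subtraction they were −0.095 and 0.60, and with TMM scaling added −0.79 and −0.097.

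The high collagen of the 2 lineage-negative libraries was of unlike make-up. Replicate 4 had 418 normalized counts of Col1a1 and 382 of Col3a1, and replicate 2 had 722 of Col1a1 and 1.76 of Col3a1, a ratio of 409.5 against 1.09. Replicate 4 was also the highest lineage-negative library for Col5a2 (126 against 0.881 to 32.6), Col6a3 (81.6 against 1.82 to 2.64), the matricellular gene Thbs2 (129.9 against 4.41 to 20.9) and Postn, the gene of periostin (88.1 against 1.76 to 9.98). Replicate 2 was the highest for the osteocalcin genes Bglap and Bglap2. Summed cartilage markers were 19.4 to 64.4 over the lineage-negative libraries, with Acan, Matn1 and Matn3 at or under the floor in all 4, and summed skeletal muscle markers 51.5 to 98.4, with Myh4 at or under it.

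Sparc (ENSMUSG00000018593, chromosome 11, 55285326 to 55314009, minus strand) encodes osteonectin, a collagen-binding protein of bone and vessels. In AML it ran from 44.4 over a median of 64.1 to 84.6. Whole marrow had 72.7, 147, 175 and 149, and lineage-negative marrow 37.2, 91.7, 7.93 and 194. AML and whole marrow overlapped only through whole marrow replicate 1, the shallowest library, with 11.4 M reads. The log2 difference of AML from whole marrow was −0.98 (SE 0.54, limma adjusted p = 0.121), and −1.67 with TMM scaling, which passed (limma adjusted p = 0.0225). Lineage-negative marrow differed from whole marrow by −1.39 (SE 0.61, limma adjusted p = 0.0542), and by −2.08 with TMM scaling, which passed (limma adjusted p = 0.00807), while AML and lineage-negative marrow differed by 0.41 (SE 0.54, limma adjusted p = 0.565).

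Among 20 genes of matrix and collagen processing, all tested, fibronectin was far more abundant than the collagens. Fn1 had 47238 ± 18335 normalized counts in AML (n = 7), 8381 ± 1818 in whole marrow (n = 4) and 2042 ± 1925 in lineage-negative marrow (n = 4). Its log2 difference was 2.42 against whole marrow (SE 0.46, limma adjusted p = 0.00018), or 1.73 with TMM scaling, and 4.98 against lineage-negative marrow (SE 0.46, limma adjusted p = 3.47e-08). Fn1 was the 1 gene of the list called higher in AML than in whole marrow, and 4 were called lower, among them P4ha2, a collagen prolyl hydroxylase, at −3.72, Col6a2 at −2.24 and Col6a1 at −1.54. The list's median log2 difference was −0.65, against 0.67 for all genes, and 8 were called lower and 1 higher with TMM scaling.

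Against lineage-negative marrow, 5 of the 20 matrix genes were called higher in AML and 3 lower, beside 17.7% and 12.5% of all genes. The median of the list was 0.66, against 0.02 for all genes. Dcn, the small proteoglycan decorin, differed by 3.40 (SE 0.52), P4ha2 by −1.96 and Col5a1 by −1.79 (SE 0.30). Between the wild-type groups 10 were called lower in lineage-negative marrow and 1 higher (12 and 0 with TMM scaling), with a median of −1.44 against 0.59 for all genes. The largest of those differences were −3.15 for Dcn, −3.04 for Col6a2, −2.56 for Fn1 and −2.46 for Loxl1, a collagen cross-linking enzyme. Fibronectin is also made by macrophages and other myeloid cells, and the macrophage markers summed to 2792 to 7750 in AML, 1251 to 3111 in whole marrow and 157 to 339 in lineage-negative marrow. Their part in the Fn1 difference was not tested.

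**Figure D3:**
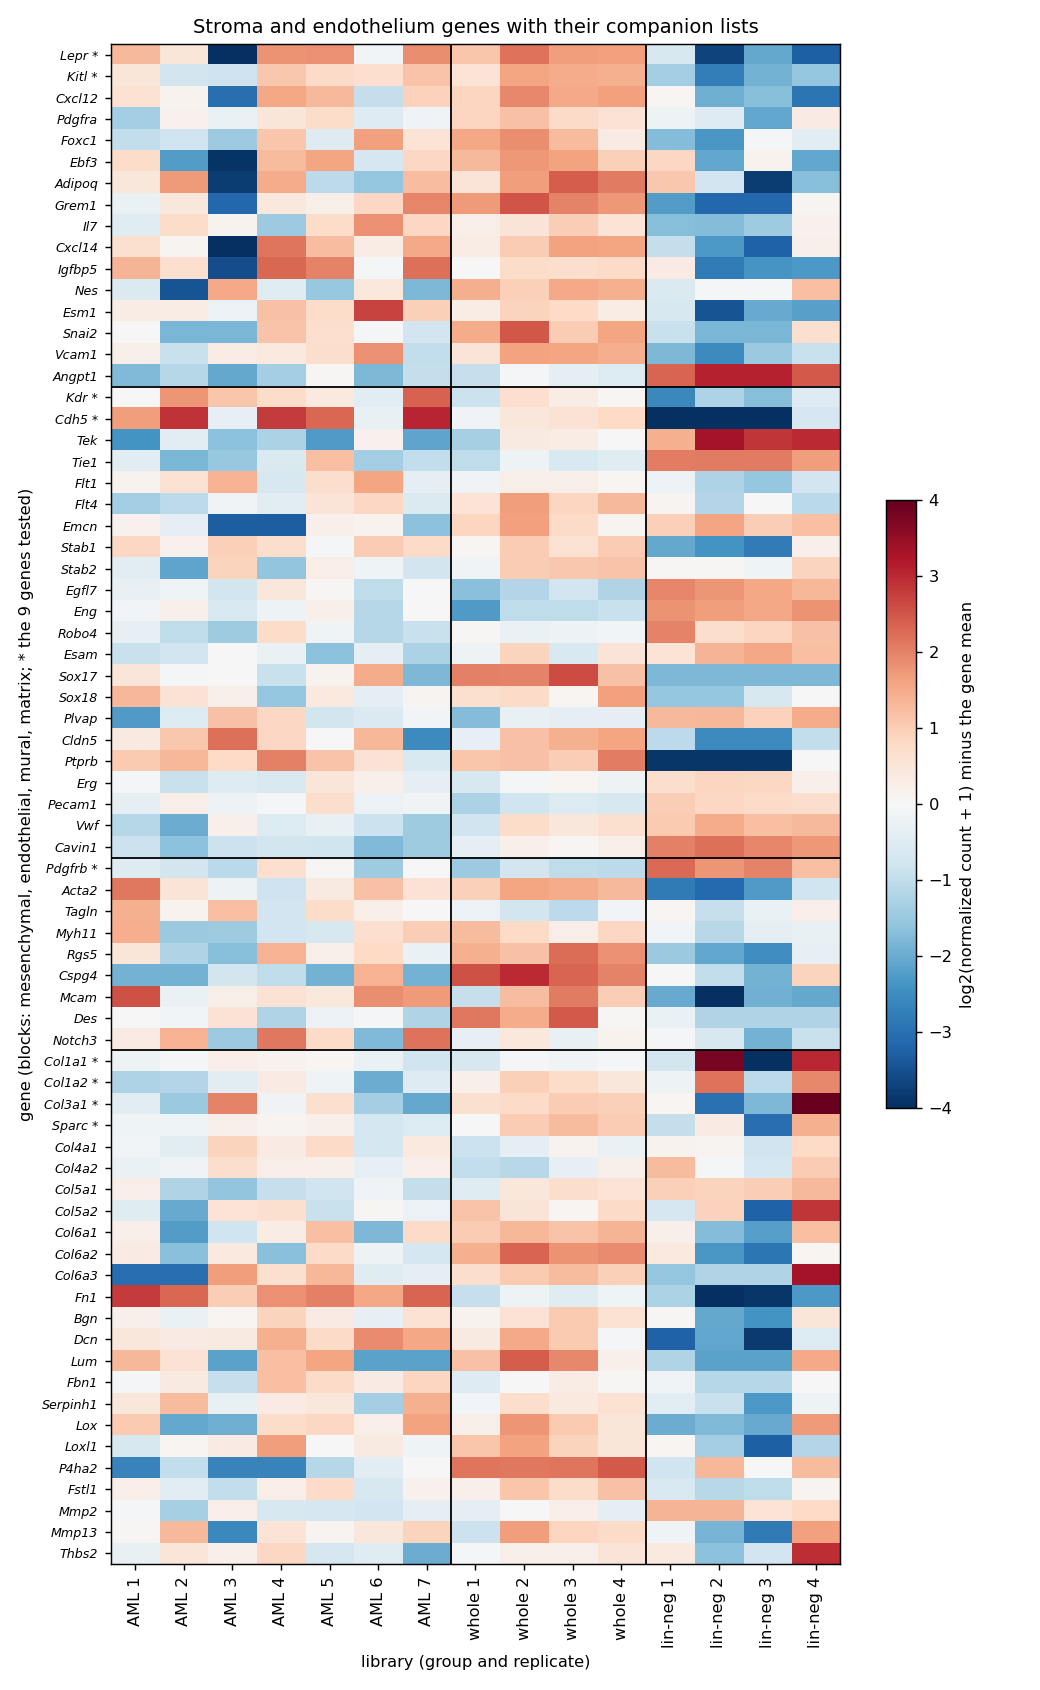
Log2 of the normalized count plus 1 minus the gene's mean over 15 libraries, for the 9 genes tested (asterisks) and their companion lists in blocks of mesenchymal, endothelial, mural and matrix genes; columns are libraries by group and replicate. Most mesenchymal genes are low in lineage-negative marrow with Angpt1 high. The endothelial block is mixed there, with 8 genes called higher and 5 lower than in whole marrow (33.1% and 17.2% of all genes). The type I collagen genes stand out in lineage-negative replicates 2 and 4, and Col3a1 in replicate 4 but not in replicate 2.

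Pdgfrb (ENSMUSG00000024620, chromosome 18, 61178222 to 61218133, plus strand) encodes a receptor of platelet-derived growth factor carried by pericytes and mesenchymal cells. Lineage-negative marrow had 1002, 704.2, 813 and 477 normalized counts, whole marrow 75.4, 125, 102 and 98.2, and AML a lowest of 76.5, a median of 145 and a highest of 330.4. Every lineage-negative library was above every library of the other groups. The log2 difference of AML from lineage-negative marrow was −2.24 (SE 0.32, limma adjusted p = 1.18e-05). Lineage-negative marrow was higher than whole marrow by 2.86 (SE 0.36, limma adjusted p = 2.31e-06), and by 2.17 with TMM scaling (limma adjusted p = 5.75e-05). AML and whole marrow differed by 0.63 (SE 0.32, limma adjusted p = 0.0970), and by −0.07 with TMM scaling.

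No mural cell gene was called in the direction of Pdgfrb in the comparisons with lineage-negative marrow. Of 8 genes of pericytes and smooth muscle, 6 were tested. In lineage-negative marrow 4 were called lower and 0 higher than in whole marrow (0 higher at an unadjusted limma p under 0.05 as well). The shares of all genes were 17.2% and 33.1%. The median log2 difference of the list was −3.10, against 0.59 for all genes. Acta2, smooth muscle actin, had 9.16 ± 8.38 normalized counts in lineage-negative marrow (n = 4) and 98.4 ± 18.5 in whole marrow (n = 4), a difference of −3.58; Mcam differed by −3.45, Rgs5 by −3.25 and Cspg4 by −2.95. AML was called above lineage-negative marrow in 3 of the 6, Mcam by 3.62, Acta2 by 2.78 and Rgs5 by 1.55, and below in 0 (0 lower at an unadjusted limma p under 0.05 as well). Of the 3 not called, Notch3 differed by 1.37, Tagln by 0.64 and Cspg4 by −0.64. Of all genes, 17.7% were called above and 12.5% below in that comparison. Against whole marrow, Cspg4 (−3.59) and Rgs5 (−1.70) were called lower in AML. Cspg4 in whole marrow was near the receptor gene background, and with background subtraction and TMM scaling its differences were −0.42 and 0.57, neither called. The progenitor markers were called in the direction of Pdgfrb, 5 of 5 higher in lineage-negative than in whole marrow and 5 of 5 lower in AML than in lineage-negative marrow. Of 6 megakaryocyte markers, 4 were called lower in AML than in lineage-negative marrow, but between the wild-type groups 1 was called higher (Itga2b, 2.36) and 1 lower (Ppbp, −3.81) in lineage-negative marrow. Against whole marrow 5 of the 6 were called lower in AML, where Pdgfrb was not called. Their sums were 2231 to 3371 in lineage-negative marrow, most of it Itga2b (mean 2311), 617 to 1735 in whole marrow and 117 to 556 in AML. The part of these cells in the Pdgfrb values was not tested.

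Kdr (ENSMUSG00000062960, chromosome 5, 76093487 to 76139118, minus strand) encodes VEGF receptor 2, the main signalling receptor of endothelium for vascular endothelial growth factor. In AML it ran from 44.4 over a median of 99.7 to 307 normalized counts. Whole marrow had 32.3, 96.5, 73.0 and 61.4, and lineage-negative marrow 9.08, 24.7, 17.6 and 41.1. All AML libraries were above all lineage-negative libraries, with a log2 difference of 2.36 (SE 0.48, limma adjusted p = 0.000454). AML against whole marrow gave 0.81 (SE 0.48, limma adjusted p = 0.147), and 0.12 with TMM scaling.

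Lineage-negative marrow had less Kdr than whole marrow by −1.55 as deposited (SE 0.54, limma adjusted p = 0.0173) and by −2.23 with TMM scaling (limma adjusted p = 0.00165), but this call depended on the background. Whole marrow replicate 1 held 1.11 times the background for the length of Kdr, and the others up to 5.08 times. With background subtraction the difference was −0.55 (limma adjusted p = 0.554), and with TMM scaling added −1.32 (limma adjusted p = 0.141). The call was also lost without whole marrow replicate 2 (−1.34, limma adjusted p = 0.0572) or lineage-negative replicate 1 (−1.19, limma adjusted p = 0.0675). Background subtraction alone also moved AML against whole marrow to 1.80 for Kdr, which passed (limma adjusted p = 0.0292).

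Cdh5 (ENSMUSG00000031871, chromosome 8, 104828257 to 104871143, plus strand), the gene of VE-cadherin, which joins endothelial cells to each other, had the largest difference of the 9 genes between AML and lineage-negative marrow. AML ran from 24.5 over a median of 154 to 262 normalized counts, whole marrow had 27.8, 42.9, 47.0 and 54.6, and lineage-negative marrow 0.908, 0.881, 0 and 18.9, the first 3 under the floor. All AML libraries were above all lineage-negative ones, with a log2 difference of 5.18 (SE 0.74, limma adjusted p = 1.02e-05), and all lineage-negative libraries were below all whole marrow libraries, with −3.88 (SE 0.83, limma adjusted p = 0.000462), or −4.47 with TMM scaling. Against whole marrow, 5 AML libraries were above all 4 whole marrow libraries and 2, replicates 3 and 6, were below them. That difference was 1.29 (SE 0.74, limma adjusted p = 0.131). It was 0.61 with TMM scaling (limma adjusted p = 0.552) and 0.88 with background subtraction and TMM scaling (limma adjusted p = 0.413), while without AML replicate 3 and with the deposited scaling it was 1.64 and passed (limma adjusted p = 0.0457). A predicted antisense gene overlaps Cdh5 and had at most 7.40 normalized counts.

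By likeness of pattern over the 15 libraries, measured as the root-mean-square gap of log2 values after removal of each gene's mean, the 5 genes nearest to Cdh5 were Siglec1 (0.73), Pacsin1 (0.93), Apod (0.95), Ifi207 (0.95) and Ifi213 (0.98). The gap to Kdr was 1.57. Siglec1, a macrophage lectin, had 50.2 to 605 normalized counts in AML, 89.8 to 198 in whole marrow and 0.881 to 14.4 in lineage-negative marrow. For Col1a1 the nearest were Col5a2 (1.13), Sugct (1.48), Ighv1-19 (1.48), Fgd5 (1.49) and Epn2 (1.50), beside gaps of 1.19 to Sparc and 1.24 to Col1a2.

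A marker of dendritic cells was low in the AML libraries that were low in Cdh5. Siglech, a lectin of plasmacytoid dendritic cells, had 753, 2169.6, 181, 1883, 1279, 55.5 and 2224 normalized counts in AML replicates 1 to 7, beside 100.5, 237, 24.5, 219, 154, 24.7 and 262 of Cdh5. A list of 10 such markers, chosen after the data had been seen, summed to 5404, 13598, 5840, 12433, 8645, 2084 and 13404 in AML replicates 1 to 7, to 2918 to 5653 in whole marrow and to 2426 to 2766 in lineage-negative marrow. The sum was lowest in replicate 6, but in replicate 3 it was above that of replicate 1, which had more Cdh5. Not every marker followed, since Spib was at 1237 in replicate 3 and Cox6a2 at 102 in replicate 6, both among the higher AML values. Spib (421 in replicate 1), Ly6d (725 against 261) and Tcf4 (2525 against 2153) were higher in replicate 3 than in replicate 1, and the other listed markers were lower. Klk1 did not exceed the floor in any lineage-negative library. Macrophage markers were called higher in AML than in lineage-negative marrow in 6 of 6. The part of these cells in the Cdh5 values was not tested.

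The other endothelial genes were split. Of 20 listed, 18 were tested, and 4 were called higher and 10 lower in AML than in lineage-negative marrow. The shares of all genes were 17.7% and 12.5%. The median log2 difference of the list was −1.68, against 0.02 for all genes. The 4 genes called higher in AML were called in the direction of Cdh5 and Kdr in both comparisons with lineage-negative marrow. Ptprb, the endothelial phosphatase VE-PTP, differed by 3.81 and was at 0 in 3 of 4 lineage-negative libraries. Stab1, a scavenger receptor of sinusoids and macrophages, differed by 2.39, the tight junction gene Cldn5 by 2.23 and Flt1, VEGF receptor 1, by 1.44. Tek, the angiopoietin receptor, was 7.48 ± 6.40 in AML (n = 7) and 128 ± 57.2 in lineage-negative marrow (n = 4), a log2 difference of −4.08 (SE 0.52, limma adjusted p = 2.61e-06). Cavin1, a coat protein of caveolae, differed by −3.14 and Tie1, the sister receptor of Tek, by −2.75. Tek, Tie1, Eng, Egfl7 and Angpt1 are also known from haematopoietic stem and progenitor cells.

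Lineage-negative marrow was called above whole marrow in 8 of the 18 endothelial genes and below in 5, or 5 and 6 with TMM scaling, with a median of 1.00 against 0.59 for all genes. Eng, a TGF-beta co-receptor, had 1255 ± 100.2 normalized counts in lineage-negative marrow (n = 4) and 165 ± 58.1 in whole marrow (n = 4), a log2 difference of 3.01, or 2.32 with TMM scaling. Egfl7 differed by 2.85, Tek by 2.82 and Ptprb by −4.24. With background subtraction and TMM scaling 7 were called above and 2 below, and Ptprb was no longer called, at −1.23. The 2 genes of the list that were too low to test, the transcription factor genes Sox17 and Sox18, did not exceed the floor in any lineage-negative library, nor did Sox18 in 2 of 4 whole marrow libraries. Against whole marrow, 6 endothelial genes were called lower in AML and 1 higher (8 and 0 with TMM scaling), at backgrounds of 11.3% and 27.3%, with a median of −0.45 against 0.67 for all genes. Emcn fell most (−1.99), before Flt4 (−1.42), Stab2 (−1.32) and Tek (−1.26). With background subtraction and TMM scaling, 2 endothelial genes were called lower and 1 higher in AML, and these 4 were no longer called, at −0.15, −0.23, −1.29 and −0.54.

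Bglap (ENSMUSG00000074483, chromosome 3, 88290808 to 88291771, minus strand), the gene of osteocalcin, was at or under the floor in 14 of 15 libraries. It was at 0 in all 4 whole marrow libraries, at 0 to 2.47 in AML and at 0.908, 9.19, 0 and 1.28 in lineage-negative marrow. Fitted without the filter, lineage-negative against whole marrow gave a log2 difference of 1.37 (SE 0.58, limma adjusted p = 0.0529), AML against whole marrow 0.63 (limma adjusted p = 0.304) and AML against lineage-negative marrow −0.74 (limma adjusted p = 0.430). A difference in Bglap was thus not detectable in these data, and the near-identical Bglap2 and Bglap3 make the split of reads uncertain. In whole marrow the receptor gene background for the length of Bglap was 1.04 to 2.00, above its values of 0. Bglap2 was highest in lineage-negative replicate 2, with 6.67, before whole marrow replicate 2, with 5.36. Bglap3 went the other way. Whole marrow libraries held 3.13 to 11.7 of it, 2 of 4 at or under the floor. Lineage-negative libraries held at most 0.653, and AML libraries at most 7.55. How reads were split between these genes was not tested.

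Of 15 other genes of osteoblasts and osteocytes, 9 were tested. Against whole marrow 2 were called lower in AML and 2 higher (4 and 1 with TMM scaling), at backgrounds of 11.3% and 27.3% of all genes, with a median log2 difference of −0.31 against 0.67. Ibsp, bone sialoprotein, had 27.5 ± 27.03 normalized counts in AML (n = 7) and 223 ± 40.9 in whole marrow (n = 4), with every AML library below, a log2 difference of −3.76 (SE 0.81, limma adjusted p = 0.000552) and −4.58 with background subtraction and TMM scaling. Runx2, the transcription factor of the osteoblast lineage and also of plasmacytoid dendritic cells, was higher in AML, at 1781 ± 939 against 413 ± 111, a log2 difference of 1.91 (SE 0.40, limma adjusted p = 0.000405), or 1.22 with TMM scaling. Postn (−2.88) and Ifitm5 (1.39) were called as deposited, but with background subtraction and TMM scaling their differences were 0.41 and 1.73, neither called.

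In lineage-negative marrow the osteoblast genes Alpl, alkaline phosphatase, and Ibsp were lower than in whole marrow, by −3.81 and −3.46, and Car3 (1.94) and Runx2 (1.46) were higher. With TMM scaling these last were 1.26 and 0.76, neither called, and with background subtraction added Car3 was called again, at 1.75. AML was above lineage-negative marrow for Alpl, by 2.74, and below it for Car3, by −3.04, and Postn, by −2.21. In lineage-negative marrow Sp7, Mepe and Sost, of osteoblasts and osteocytes, did not exceed the floor in any library. In AML, Mepe and Sost did not exceed it in any of the 7 libraries, and Sp7 was at or under it in 5. Whole marrow had 9.39 to 13.4 of Sp7, 0 to 8.98 of Mepe and 4.09 to 9.87 of Sost, with no background subtracted.

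Over the 9 genes tested, the median log2 difference was 0.41 between AML and lineage-negative marrow, beside 0.02 for all genes, −1.39 between lineage-negative and whole marrow, beside 0.59, and −0.89 between AML and whole marrow, beside 0.67. With TMM scaling Sparc was also called lower in lineage-negative than in whole marrow, which gave 5 of 9 lower, at a background of 24.8%, and 1 higher, at 11%. With background subtracted, the counts were 1 higher and 0 lower for AML against whole marrow (backgrounds of 38.4% and 6.50%), 4 and 2 for AML against lineage-negative marrow (16.3% and 12%) and 1 and 3 for lineage-negative against whole marrow (41.3% and 11.7%). With TMM scaling added they were 0 and 3 (8.84% and 10.1%), 4 and 2 (16.4% and 11.8%) and 1 and 4 (14.8% and 19.4%). TMM scaling alone left AML against lineage-negative marrow at 4 and 2 (17.6% and 12.4%). The comparisons share their groups, and the calls in each are not independent of the others.

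**Figure D4:**
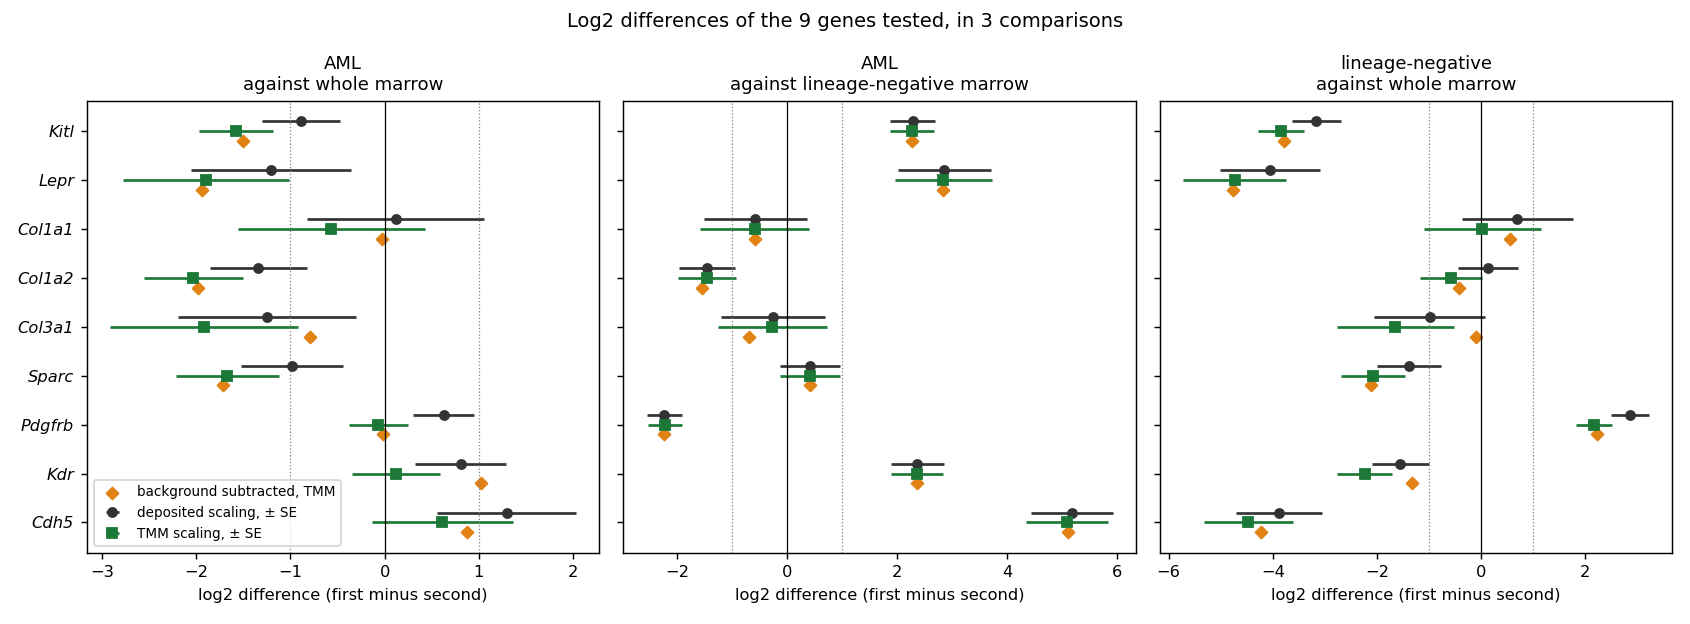
Log2 differences, first group minus second, of the 9 genes tested in the 3 comparisons, with the deposited scaling (circles), with TMM scaling (squares), both with SE bars, and after background subtraction with TMM scaling (diamonds); dotted lines mark a difference of 1. Kitl, Lepr, Kdr and Cdh5 lie at 2.28 to 5.18 in AML against lineage-negative marrow, and TMM scaling moves the comparisons with whole marrow to the left.

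Levels per kb of exon compare different genes only roughly, since the length took in all annotated exons and no background was subtracted. On that scale whole marrow had its highest mean level in Sparc, at 35.9 ± 11.7 normalized counts per kb (n = 4). Lepr followed at 27.1 ± 8.26, then Pdgfrb at 18.3 ± 3.68 and Kitl at 17.996 ± 5.10. Pdgfrb and Kitl differed by less than their spread, while Lepr stood above Pdgfrb by slightly more than either standard deviation, with overlapping ranges. Col1a2 was at 13.2 ± 2.96, Cdh5 at 10.2 ± 2.68, Kdr at 7.29 ± 2.95, Col1a1 at 6.64 ± 1.15 and Col3a1 at 3.90 ± 0.446. Against the background for their length, the whole marrow values were 5.94 to 23.3 times as high for Sparc, 5.55 to 18.1 times for Lepr, 3.24 to 11.7 times for Kitl, 4.26 to 10.8 times for Pdgfrb, 3.06 to 7.95 times for Col1a2, 2.05 to 7.72 times for Cdh5 and 1.52 to 4.32 times for Col1a1. In each case the lowest was replicate 1, the library with the highest background.

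The order was another in the other groups. In AML the highest mean levels per kb were those of Cdh5, at 34.7 ± 23.5 (n = 7), and Pdgfrb, at 31.03 ± 15.9, which overlapped, and the lowest above Bglap was Col3a1, at 2.49 ± 2.93. In lineage-negative marrow Pdgfrb led at 137 ± 40.0 normalized counts per kb (n = 4), followed by Col1a1 at 44.6 ± 52.3, Sparc at 21.8 ± 21.6 and Col1a2 at 20.9 ± 17.7, whose spreads were as large as their means or nearly so. Kdr at 2.56 ± 1.50, Lepr at 2.10 ± 2.20, Kitl at 1.90 ± 0.753 and Cdh5 at 1.23 ± 2.18 were lowest. Bglap, at 4.60 ± 6.90, rested on replicate 2.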

How the data were processed

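RNA was extracted with TRIzol and libraries followed a stranded total RNA protocol (TruSeq), per the labels. The deposited table gives the authors' signal per gene: estimated counts over a DESeq2 size factor, one per library (poscounts, in the table's name). The submitters' processing notes name STAR, Partek, DESeq2 and mm10, with no version or role; the strand used in counting is not given in the sources used here. Gene positions are as in the table. They were not matched to a build: of 38066 identifiers found in a GRCm38 annotation (GENCODE M21 gene models, used for exonic lengths), 37557 had the same length and 861 the same start.

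Of the low values, 79.6% to 85.5% per library were whole numbers of steps, where a step is the value of 1 read, within 0.02 of a step, so whole reads were not recovered, and the planned edgeR and DESeq2 tests were not run. The step gave the depth estimates and the floor of 3 reads, which cover counting error only. Genes with at least 10 normalized counts in at least 4 samples were kept (18941). Values were transformed to log2(value + 1), and limma fitted 3 group means to them together (version 3.58.1, R 4.3.3, mean-variance trend, two-sided, Benjamini-Hochberg over all genes kept, no list-wise adjustment). Calls needed an adjusted p under 0.05 and a log2 difference of at least 1 in size; the pseudocount understates changes of low genes. On simulated data for AML against whole marrow (18941 genes), 100 of 100 genes changed by 2 and 100 of 100 changed by 3 on the log2 scale were called, with 7 unchanged genes. The simulation changed only genes above a set mean level and gave all genes the same dispersion. It does not tell how often changes of uneven genes would be called, such as Lepr, with an SE of 0.85 in that comparison. The background per kb came from receptor genes with the top 5% by mean left out.

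The 10 genes and all lists were chosen with earlier results of these data known. From each companion list the text names at most 4 called genes per comparison, those with the largest difference; genes named for single libraries or beyond this rule were chosen after their values were seen. Alternatives were pseudocounts, filters, TMM and quantile scaling, background subtraction, fits of 2 groups, a replicate block and leaving out libraries. Figures and tables used Python 3.11.15.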

Additional observations from a re-analysis of the deposited data

Results flagged for a closer look

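In 5 of 29 groups of values tested for a single outlying library, 1 library lay apart from the rest of its group. Chance flags about 1 group in 20 where values are normally distributed. The test used untransformed counts, some near 0, so that rate need not hold here. Col1a1 was 32.3 normalized counts in whole marrow replicate 1 and 45.9 to 48.2 in the other 3 libraries, and this was the shallowest library. Col3a1 was 85.8 in AML replicate 3 and 4.31 to 33.04 in the other AML libraries, the same library in which Lepr was under the floor. Col3a1 was 382 in lineage-negative replicate 4 and 1.76 to 21.8 in the others. Cdh5 was 18.9 in the same lineage-negative replicate and 0 to 0.908 in the others, and Ptprb, at 13.7, was above 0 there alone among the 4. Bglap was 9.19 in lineage-negative replicate 2 and 0 to 1.28 in the others.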

How the results depend on the processing

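Over all alternatives, 136 of 156 counts of called genes were equal or close to the main count, where 3 in place of 4 was scored as close. Of the single-gene differences, 638 of 699 kept their direction and their side of the threshold. The genes called higher in AML than in lineage-negative marrow numbered 4, and 4 to 4 when each library was left out. The genes called lower there numbered 2, but 1 with all non-zero genes tested, 1 in a fit of the 2 groups alone, 1 with the replicate block, 1 without AML replicates 5 and 6 together, and 1 to 3 with each library left out. Against whole marrow, the 1 gene called lower in AML became 3 with TMM scaling, 3 with quantile normalization, 0 with background subtraction, 3 with background subtraction and TMM scaling, 0 without AML replicates 5 and 6 together, and 0 to 2 with each library left out; the 0 called higher became 1 with background subtraction and 0 to 1 with each library left out. Between lineage-negative and whole marrow the counts with each library left out were 1 to 2 higher and 3 to 6 lower.

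Directions that turned were of differences that did not pass the test. For AML against whole marrow, Col1a1 (0.12) was −0.57 with TMM scaling, −0.23 with quantile normalization, −0.030 with background subtraction and TMM scaling, and −0.017 without whole marrow replicate 1, within −0.017 to 0.23 over libraries left out. Pdgfrb (0.63) was −0.065, −0.075 and −0.015 under the same 3 scalings. For AML against lineage-negative marrow, leaving out libraries gave −2.14 to 0.53 for Col1a1 (−0.58), −1.21 to 1.16 for Col3a1 (−0.26) and −0.42 to 1.06 for Sparc (0.41), with 0.12 for Col3a1 under the replicate block. For lineage-negative against whole marrow it gave −0.42 to 2.26 for Col1a1 (0.70) and −0.36 to 0.71 for Col1a2 (0.12). Col1a2 was also −0.57 with TMM scaling, −0.56 with quantile normalization and −0.43 with background subtraction and TMM scaling, and Col3a1 (−0.99) was 0.60 with background subtraction. Turns with a library left out came without AML replicate 7, whole marrow replicate 1 or lineage-negative replicates 2, 3 or 4. The causes were not tested.

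The labels do not say that replicate numbers pair the samples. Deviations of same-numbered samples correlated at −0.29 to 0.17 over genes, but differently numbered samples were not set beside them, so pairing is not settled. With the replicate block, Col1a2 was −1.23 against whole marrow (limma adjusted p = 0.0650) and −1.35 against lineage-negative marrow (limma adjusted p = 0.0605), Lepr 2.28 against lineage-negative marrow (limma adjusted p = 0.0748), and Kitl −1.26 against whole marrow (limma adjusted p = 0.0311), so that the genes called higher than in lineage-negative marrow numbered 3 and the 1 gene called lower than in whole marrow was Kitl. Low counts limit Bglap in all groups and Cdh5 in lineage-negative marrow, and background limits Col1a1, Col3a1 and Kdr in whole marrow. TMM scaling moved the share of calls that were higher from 70.8% to 22.8% in AML against whole marrow and from 65.8% to 30.7% in lineage-negative against whole marrow.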
